A study of Mus musculus with 56 samples.

Results

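Hearts that had been without food for 8 h were compared between mice fed by day and mice fed by night. Of the 56 libraries in the series, 8 were chosen by their labels, 4 from DRF ZT20 and 4 from NRF ZT8. DRF (daytime-restricted feeding) mice ate only while the lights were on and NRF (nighttime-restricted feeding) mice only while they were off, and zeitgeber time (ZT) counts hours from lights on. Both groups were therefore 8 h past the end of their feeding phase, the DRF hearts in the dark and the NRF hearts in the light. All mice were adult female C57BL/6J, an inbred laboratory strain, 9 weeks of age, housed in groups and on the restricted schedule for 7 days under 12 h of light and 12 h of dark. PolyA RNA of the heart was sequenced, and levels are given as TPM (reads per base of transcript, set to one common total per library), recomputed from reads recovered from the deposited values. The comparison asks what differs between hearts when the time since food is equal and the light phase is not. The pair 8 h into feeding (DRF ZT8 and NRF ZT20, 4 libraries each) is the fed counterpart and shares no library with the fasting pair.

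The heart burns mainly fatty acids, and fasting is known to raise genes of fatty acid use and to restrain glucose oxidation, through the fatty acid-sensing PPAR receptors, FOXO factors that insulin holds in check, and adrenal glucocorticoids. Nearly every cell also carries a molecular clock, in which CLOCK and BMAL1 (encoded by Arntl) switch on their own repressors through the E-box sequence. Clocks outside the brain take time cues from meals as well as from signals driven by light.

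The 8 libraries held 30.2 M to 46.6 M reads, against 29.5 M to 53.4 M reads in the whole series. Mitochondrially encoded genes took 22.3 to 24.7% of the reads at DRF ZT20 and 16.9 to 21.2% at NRF ZT8, without overlap. The median log2 difference (DRF minus NRF) of all 13869 tested genes was -0.121 on the TPM scale and -0.00632 after rescaling by the median of ratios, so most counts of the gene lists are given on both scales. Cardiomyocyte markers summed to 33790 to 41280 TPM at DRF ZT20 and 40220 to 45580 TPM at NRF ZT8. Sums of 5 erythroid genes ranged from 1858 to 51790 TPM and from 2901 to 36940 TPM, and sums of 5 atrial genes from 94.2 to 2613 TPM and from 429 to 3562 TPM, so blood and atrial transcripts varied widely within both groups.

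One library stood apart from its label. Over the 1000 genes used for this check, the library labelled NRF ZT8 replicate 1 correlated with the mean of the other NRF ZT8 libraries at r = -0.089, which placed its own group at rank 10 of 14, and best with DRF ZT4 (r = 0.325). DRF ZT20 replicate 2 also correlated weakly with its own group (r = -0.048, rank 7) and best with DRF ZT16 (r = 0.426). For the other 6 libraries the labelled group ranked 1. These correlations are across genes, which are not independent replicates, and no sample was moved to another group. Results are given with and without NRF ZT8 replicate 1.

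With food state matched, 3344 genes differed between DRF ZT20 and NRF ZT8 at an adjusted p under 0.05 (limma), which is 24.1% of those tested. Of these, 438 were higher at DRF ZT20 (3.16% of tested genes) and 2906 lower (21%). After median-of-ratios rescaling 2746 genes passed (19.8%), 1359 higher (9.8%) and 1387 lower (10%). The rescaling centres the median difference near 0, so the split between higher and lower calls depends on the scale chosen. Without NRF ZT8 replicate 1, 4091 genes passed (29.5%), of which 444 were higher (3.2%) and 3647 lower (26.3%). After rescaling without that library 3226 passed (23.3%), 1639 higher (11.8%) and 1587 lower (11.4%). Without NRF ZT8 replicate 4, 1629 passed. The median size of the called differences was 0.34 on the log2 scale. In a fit of the 8 fasting libraries alone 742 genes passed. Among the genes named below as called that lost their call in that fit were Arntl, Clock, Nfil3, Rora, Tef, Acot1, Irs1, Zbtb16, Serpinh1, Hsd17b7, Scd4, Adra1a, Adra1b, Pln, Ccn2, Bnip3 and Tfrc. A difference of at least 1 on the log2 scale was called for 70 genes, 28 higher and 42 lower (99 without replicate 1 of NRF ZT8, 27 higher and 72 lower). Under both scalings, with and without that library, 1509 genes were called (10.9%), 326 (2.35%) higher and 1183 (8.53%) lower.

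Core clock genes stood in different states in the fasted hearts. Of 19 clock genes, 6 were higher and 9 lower at DRF ZT20, against 3.16% and 21% of all tested genes. The counts were 7 and 8 after rescaling, against 9.8% and 10%, and 7 and 9 without NRF ZT8 replicate 1, against 3.2% and 26.3%. The median log2 difference of the list was -0.30 (-0.64 without that library). The groups did not overlap for 10 of the 19, against 16.9% of all tested genes, or for 16 of the 19 without that library, against 31.4%. Start-site windows from RefSeq (GRCm38.p6) were listed for 16 of the 19 genes. The 250 bases before each start were searched on both strands for the E-box CACGTG, which CLOCK and BMAL1 bind, for the D-box TTATGTAA or TTACGTAA, bound by the factors encoded by Dbp, Tef, Hlf and Nfil3, and for AGGTCA, the core of the RORE, which ROR and REV-ERB receptors bind. The E-box was found in 5 of the 16 genes (Bhlhe41, Ciart, Cry1, Per1 and Tef), that is in 6 of their 21 windows (28.6%), and in 6.02% of all 32851 windows. The D-box was found in Per3 alone of the 16, in 1 of 21 windows (4.76%), and in 0.931% of all windows. The RORE core was found in Clock, Nfil3, Nr1d2 and Per1, in 4 of 21 windows (19%), and in 14% of all windows. A match is a description of the sequence and not evidence of binding. The windows of 5 genes called between the groups are shown because they place these clock motifs beside genes that were lower (Ciart, Bhlhe41 and Per3) and higher (Cry1 and Nfil3) at DRF ZT20, with the matched letters in capitals and each window read 5′ to 3′ towards the start.
The windows of Ciart (chr3:95882229-95882478, minus strand) and Bhlhe41 (chr6:145865421-145865670, minus strand) hold 3 E-boxes and 1 E-box.
Ciart: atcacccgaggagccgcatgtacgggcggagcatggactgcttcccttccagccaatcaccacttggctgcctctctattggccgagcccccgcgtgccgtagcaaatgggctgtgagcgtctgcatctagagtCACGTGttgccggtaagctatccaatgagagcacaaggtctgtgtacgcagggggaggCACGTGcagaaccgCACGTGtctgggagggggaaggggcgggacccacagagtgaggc
Bhlhe41: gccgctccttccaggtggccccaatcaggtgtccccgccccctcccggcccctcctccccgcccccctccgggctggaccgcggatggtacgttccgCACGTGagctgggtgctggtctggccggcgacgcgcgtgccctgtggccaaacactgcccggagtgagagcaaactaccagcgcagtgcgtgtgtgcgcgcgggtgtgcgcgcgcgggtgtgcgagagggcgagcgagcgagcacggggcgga
That of Cry1 (chr10:85185055-85185304, minus strand) holds 1 E-box, 60 bases before the start.
Cry1: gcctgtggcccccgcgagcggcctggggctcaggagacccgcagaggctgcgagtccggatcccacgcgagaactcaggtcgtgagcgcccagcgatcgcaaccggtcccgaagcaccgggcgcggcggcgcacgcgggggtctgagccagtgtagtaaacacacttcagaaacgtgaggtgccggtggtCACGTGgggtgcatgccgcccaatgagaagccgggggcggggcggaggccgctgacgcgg
That of Per3 (chr4:151044666-151044915, minus strand) holds 2 D-boxes, 205 and 158 bases before the start, and that of Nfil3 (chr13:52981040-52981289, minus strand) holds 1 RORE core 12 bases before it.
Per3: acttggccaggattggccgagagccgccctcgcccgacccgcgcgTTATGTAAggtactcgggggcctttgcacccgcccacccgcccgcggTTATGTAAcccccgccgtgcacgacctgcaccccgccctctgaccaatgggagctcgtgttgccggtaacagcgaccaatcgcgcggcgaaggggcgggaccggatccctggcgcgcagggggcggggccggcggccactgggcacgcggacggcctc
Nfil3: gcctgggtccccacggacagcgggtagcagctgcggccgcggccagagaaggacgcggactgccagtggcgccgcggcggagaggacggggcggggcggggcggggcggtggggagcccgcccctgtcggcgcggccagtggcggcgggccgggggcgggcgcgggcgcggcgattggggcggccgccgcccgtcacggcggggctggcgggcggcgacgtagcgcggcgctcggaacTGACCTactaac

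The widest gaps were in clock outputs. Nr1d1, which encodes the repressor REV-ERBα, was at 8.72, 12.6, 6.87 and 9.18 TPM in the DRF ZT20 libraries and at 53.5, 139, 136 and 169 TPM in the NRF ZT8 libraries (replicates 1 to 4 in order, here and below). It was 13.3-fold higher at NRF ZT8 (log2 difference -3.51 ± 0.27 SE, limma adjusted p = 1.4e-12). Dbp, an activator at the D-box, was at 9.62, 6.16, 7.97 and 8.01 TPM against 19.9, 116, 148 and 157 TPM (log2 difference -3.30 ± 0.42 SE, adjusted p = 6.68e-07). The groups did not overlap for either gene, but NRF ZT8 replicate 1 lay below replicates 2 to 4, and without it the differences were -3.87 and -3.99. Nr1d1 overlaps Thra and Dbp adjoins Sphk2 on the opposite strand. Since the library kit does not mark strand, reads from where the exons of such a pair overlap cannot be told apart.

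Other repressors and outputs were lower at DRF ZT20 as well. Ciart, a repressor of CLOCK and BMAL1, was at 1.24, 1.39, 1.21 and 0.854 TPM against 1.58, 6.61, 12.4 and 9.96 TPM (log2 difference -1.76, adjusted p = 0.000427, without replicate 1 of NRF ZT8 -2.26). Bhlhe41, which encodes another E-box repressor, was at 3.48, 3.74, 4.37 and 4.38 TPM against 6.94, 11.3, 12.6 and 11.9 TPM (-1.201, adjusted p = 1.32e-07, without replicate 1 of NRF ZT8 -1.38). Its relative Bhlhe40 averaged 15.7 ± 4.003 against 38.6 ± 12.5 TPM (SD, n = 4 each, limma log2 difference -1.21, adjusted p = 0.000139). The groups did not overlap for Ciart and Bhlhe41, and overlapped for Bhlhe40 only through replicate 1 of NRF ZT8. Per3, a period gene whose window holds the D-boxes above, was at 4.01, 2.96, 3.88 and 3.97 TPM against 5.12, 6.19, 10.3 and 7.60 TPM, again without overlap (-0.79, adjusted p = 0.00149, without replicate 1 of NRF ZT8 -0.92). Nr1d2, which encodes REV-ERBβ, differed by -0.90 and the D-box activators Hlf and Tef by -0.86 and -0.47. Tef was the only one of these 9 genes not called after rescaling (adjusted p = 0.0729), and its call was also lost without DRF ZT20 replicate 2 or NRF ZT8 replicates 3 or 4 (-0.40 to -0.36).

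The opposite arm of the loop was higher at DRF ZT20. Arntl was at 7.07, 6.82, 5.91 and 7.35 TPM against 5.94, 1.82, 0.876 and 1.91 TPM (log2 difference 1.27 ± 0.23 SE, adjusted p = 0.000112). Nfil3, a repressor at the D-box, was at 17.7, 21.6, 15.8 and 19.8 TPM against 22.2, 4.93, 6.68 and 5.25 TPM (1.12, adjusted p = 0.000967). In both genes the library labelled NRF ZT8 replicate 1 reached the DRF ZT20 libraries, and without it the differences were 1.64 and 1.57. Cry1, a repressor of CLOCK and BMAL1, was at 16.4, 17.1, 16.6 and 16.9 TPM against 13.1, 5.40, 6.64 and 6.51 TPM, without overlap (1.07, adjusted p = 6.13e-06, without replicate 1 of NRF ZT8 1.31). Clock differed by 0.38 and the nuclear receptor gene Rora by 0.37. Npas2, a partner of BMAL1, was not called on the TPM scale with all libraries (0.42, adjusted p = 0.0749) and was called after rescaling (0.49, adjusted p = 0.0416) and without NRF ZT8 replicate 1 (0.73, adjusted p = 0.000372). Per1, Per2 and Cry2 were not called, at -0.30 (95% interval -1.03 to 0.43), 0.14 (-0.34 to 0.62) and -0.046 (-0.26 to 0.17), and without NRF ZT8 replicate 1 they were at -0.80 (adjusted p = 0.0757), 0.0025 and -0.14, again not called. NRF ZT8 replicate 1 lay outside the range of replicates 2 to 4 in 19 of 19 clock genes and was nearer to the DRF ZT20 mean in 16.

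**Figure D1:**
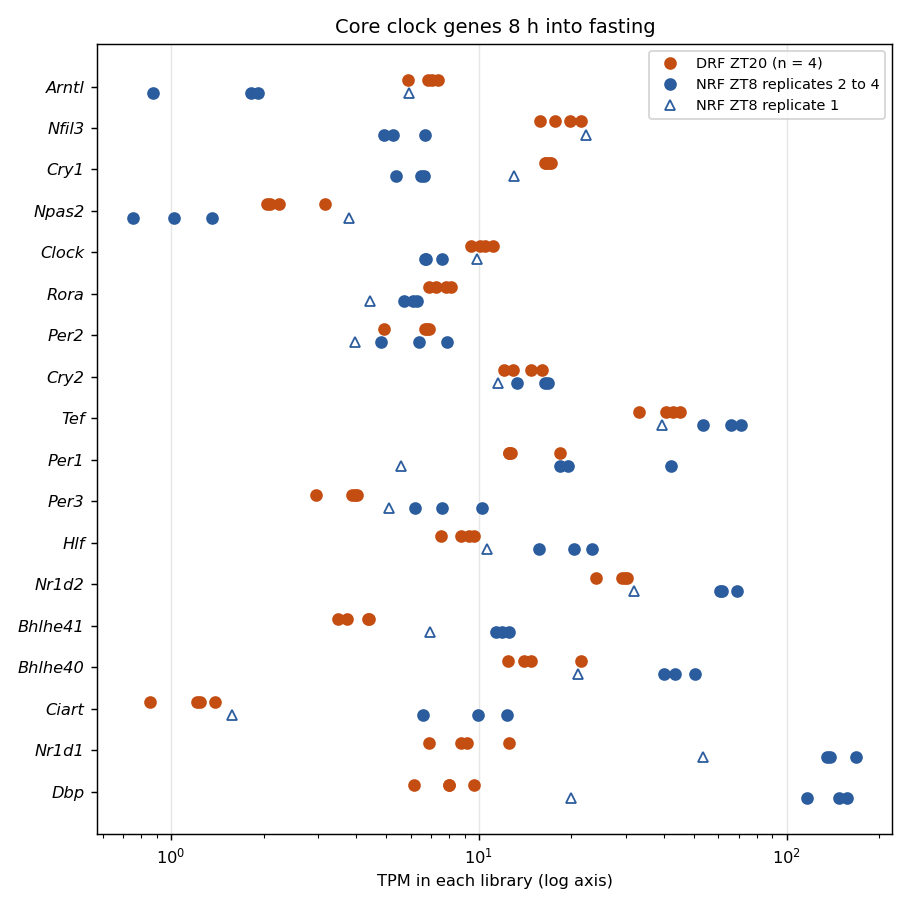
TPM of 18 core clock genes in each of the 8 libraries (log axis), with DRF ZT20 in orange, NRF ZT8 replicates 2 to 4 in filled blue and NRF ZT8 replicate 1 as an open triangle, ordered by the difference without that replicate. Nr1d1 and Dbp show the widest gaps, and for Arntl, Nfil3, Bhlhe40, Tef and Clock the open triangle reaches the orange points.

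The fed pair gave the main clock genes in the reverse order. At 8 h into feeding the DRF hearts were taken at ZT8 and the NRF hearts at ZT20, so the light phases of the regimens were swapped, and 6 clock genes were higher and 4 lower at DRF ZT8, against 2.61% and 2.95% of all tested genes (8 and 4 after rescaling, against 6.06% and 4.61%). Nr1d1 averaged 81.2 ± 5.56 TPM at DRF ZT8 and 5.21 ± 0.310 TPM at NRF ZT20 (SD, n = 4 each, limma log2 difference 3.73, adjusted p = 1.58e-13). Dbp averaged 74.6 ± 5.196 and 8.74 ± 1.97 TPM (2.97), Arntl 2.07 ± 0.777 and 5.57 ± 0.927 TPM (-1.12) and Cry1 9.48 ± 0.667 and 24.8 ± 0.692 TPM (-1.30), all called. These 4 genes were thus ordered by zeitgeber time within either food state. The difference between ZT20 and ZT8 averaged over the regimens was -3.62 for Nr1d1, -3.14 for Dbp, 1.198 for Arntl and 1.18 for Cry1. The difference between DRF and NRF averaged over the same 4 groups was 0.11 (95% interval -0.28 to 0.50), -0.16 (-0.77 to 0.44), 0.074 (-0.25 to 0.40) and -0.12 (-0.34 to 0.11), none called. Without NRF ZT8 replicate 1 these values were -0.072, -0.51, 0.26 and 0.0048, again none called. Of the 19 genes, Bhlhe41 was called lower under DRF in that average (-0.40, adjusted p = 0.0125) and Rora higher (0.24, adjusted p = 0.0276). Without NRF ZT8 replicate 1 Rora was not called (adjusted p = 0.0585), Bhlhe41 (-0.49), Bhlhe40 (-0.53) and Ciart (-0.87) were lower and Npas2 (0.39) was higher.

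The feeding pair was also compared with the fasting pair over all genes. Between the fed groups 771 genes were called (5.56%), 362 higher (2.61%) and 409 lower (2.95%) at DRF ZT8. After rescaling 1481 were called (10.7%), 841 higher (6.06%) and 640 lower (4.61%). Of the 3344 genes called in the fasting pair, 257 were called with the opposite sign in the feeding pair, 30 with the same sign and 3057 not at all (298, 29 and 3764 of 4091 without NRF ZT8 replicate 1). Of the 70 genes with the largest calls, clock genes included, the counts were 20, 0 and 50 (30, 1 and 68 of 99 without that library). Over all 13869 tested genes, called in the fasting pair or not, the counts were 554, 217 and 13098. The log2 differences of the pairs correlated over these genes at r = -0.26, a description across genes, which all share the same libraries. Averaged over regimens, 2440 genes differed between ZT20 and ZT8 (17.6%), and averaged over the times 1349 differed between DRF and NRF (9.73%), 145 higher (1.05%) and 1204 lower (8.68%) under DRF. After rescaling the count between DRF and NRF was 979 (7.06%), 520 higher (3.75%) and 459 lower (3.31%). On the TPM scale without NRF ZT8 replicate 1 it was 1808 (13%), 137 higher (0.988%) and 1671 lower (12%). It fell to 461 without NRF ZT8 replicate 4. Between fasted and fed hearts 709 genes differed (5.11%), or 1357 (9.78%) after rescaling and 1127 (8.13%) without NRF ZT8 replicate 1. These averages include the 8 fasting libraries and are not independent of the fasting pair.

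**Figure D2:**
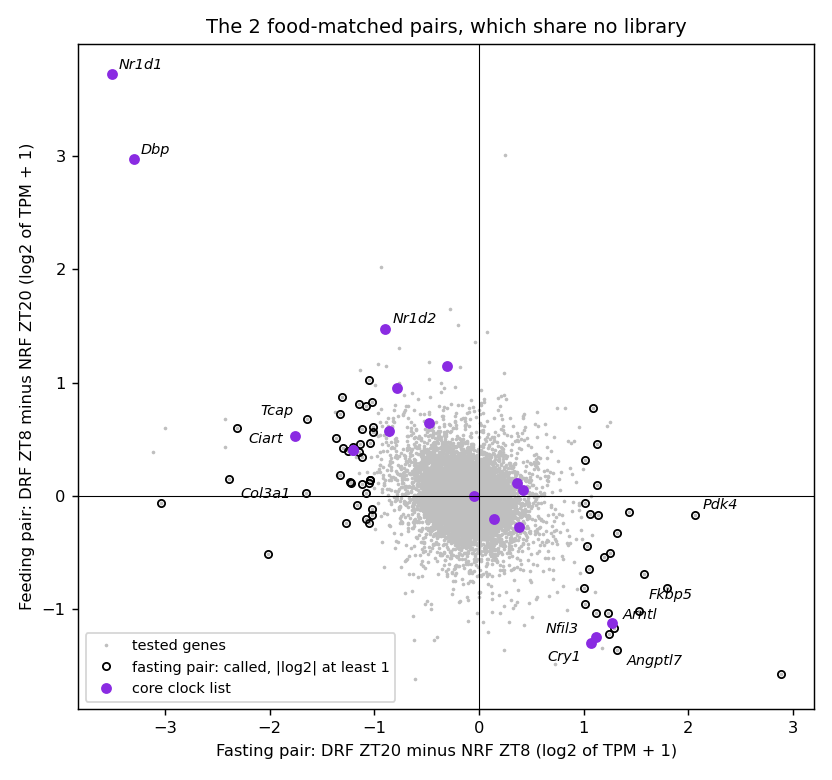
Log2 difference (DRF minus NRF, log2 of TPM + 1) of each of 13869 tested genes in the fasting pair (x axis) and the feeding pair (y axis), with circles for the 70 largest called genes and purple for 18 core clock genes. Nr1d1 and Dbp lie far to the upper left, Arntl, Cry1 and Nfil3 to the lower right, and Pdk4 and Col3a1 near the horizontal line at 0.

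Among fuel genes a few were higher at DRF ZT20, led by Pdk4. Pdk4, which encodes the kinase that shuts off pyruvate dehydrogenase and so spares glucose, was at 1441, 1589, 1131 and 955 TPM at DRF ZT20 and at 284, 419.9, 148 and 447 TPM at NRF ZT8. All DRF ZT20 libraries lay above all NRF ZT8 libraries (3.94-fold, log2 difference 2.07 ± 0.46 SE, adjusted p = 0.00107, and 2.04 without replicate 1). In the fed hearts Pdk4 averaged 65.4 ± 18.2 TPM (DRF ZT8) and 71.9 ± 6.10 TPM (NRF ZT20, SD, n = 4 each), with a limma log2 difference of -0.17 (95% interval -1.09 to 0.76). Fasted hearts of both regimens together exceeded fed hearts by 3.16 on the log2 scale (adjusted p = 6.78e-09).

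Of 28 genes of fatty acid oxidation and uptake, 3 were higher and 2 lower at DRF ZT20, against 3.16% and 21% of all tested genes, and the median log2 difference was -0.017. After rescaling 4 were higher and 0 lower (median 0.11), against 9.8% and 10%, and after rescaling without NRF ZT8 replicate 1, 8 and 0 (median 0.13), against 11.8% and 11.4%. Ehhadh, a peroxisomal oxidation enzyme, was at 26.6, 18.6, 24.5 and 20.3 TPM against 9.29, 11.7, 9.37 and 12.9 TPM (0.99 ± 0.18 SE, adjusted p = 0.000135, and 0.93 without NRF ZT8 replicate 1). Acot1, a thioesterase that frees fatty acids from coenzyme A, was at 26.0, 42.4, 33.7 and 30.01 TPM against 18.98, 18.7, 8.84 and 22.1 TPM (0.95, adjusted p = 0.00834), and its reads are uncertain because Acot2 is a near copy. The Acot1 call was lost without NRF ZT8 replicate 3 (0.68). Angptl4, a secreted inhibitor of lipoprotein lipase, was at 40.6, 54.3, 25.9 and 16.5 TPM against 3.28, 15.98, 6.81 and 12.1 TPM, and its call (1.798, adjusted p = 0.0204) was lost without DRF ZT20 replicates 1 or 2 or NRF ZT8 replicate 1 (1.43 to 1.68). No NRF ZT8 library reached the DRF ZT20 range for these 3 genes. Slc27a1, a fatty acid transporter, and Fabp3, the heart fatty acid binding protein, were lower (log2 differences -0.47 and -0.32), and neither was called after rescaling (adjusted p = 0.0543 and 0.187). The call of Slc27a1 was also lost without NRF ZT8 replicate 4 (-0.38). Acadl, Acadm, Acadvl, Hadha, Hadhb and Hadh, enzymes of mitochondrial β-oxidation, differed by -0.12 to 0.027, none called.

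Some genes that separated fasted from fed hearts overlapped between the fasted groups. Of 553 genes called between fasted and fed hearts with a mean of at least 5 TPM, 395 (71.4%) had a 95% interval of the DRF ZT20 minus NRF ZT8 difference inside -0.5 to 0.5, a share near the 75.2% of all genes at that level. Of the 553 genes 205 were nonetheless called between the fasted groups, against 24.1% of all tested genes. Among the 205 were 80 of those 395. Cpt1a, the gate for entry of fatty acids into mitochondria, was at 48.4, 40.2, 44.8 and 51.1 TPM against 31.1, 53.1, 43.9 and 61.5 TPM (limma log2 difference -0.002, 95% interval -0.35 to 0.35, and -0.19 ± 0.18 SE without NRF ZT8 replicate 1), and averaged 25.4 ± 0.465 and 23.2 ± 0.759 TPM in the fed DRF and NRF groups (SD, n = 4 each). Gpam, the first enzyme of triglyceride synthesis, averaged 123 ± 12.3 and 119 ± 25.7 TPM fasted against 71.0 ± 4.60 and 70.5 ± 4.76 TPM fed. The mitochondrial carrier gene Slc25a34 averaged 215 ± 22.8 and 192 ± 27.2 TPM fasted against 120.3 ± 6.04 and 122 ± 16.1 TPM fed. For these 3 genes the fasted groups overlapped, and fasted exceeded fed hearts by 0.89, 0.75 and 0.73 (limma adjusted p = 4.92e-06, 0.000258 and 1.05e-06). These 3 genes, like Lipe, Slc25a22 and Acot2 below, were chosen for a called food-state difference and a fasting interval inside -0.5 to 0.5. Both properties were therefore conditions of choice. Lipe, the hormone-sensitive lipase, Slc25a22, a glutamate carrier, and Acot2 had fasting differences of 0.12, 0.12 and 0.025 (-0.033, 0.092 and -0.0011 without that library) and food-state differences of 0.60, 0.93 and 0.77. Ucp3, a mitochondrial carrier of the uncoupling protein family, was higher in fasted hearts by 1.96, and the interval of its fasting difference (0.66, -0.21 to 1.53, and 0.25 without NRF ZT8 replicate 1) was wide.

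**Figure D3:**
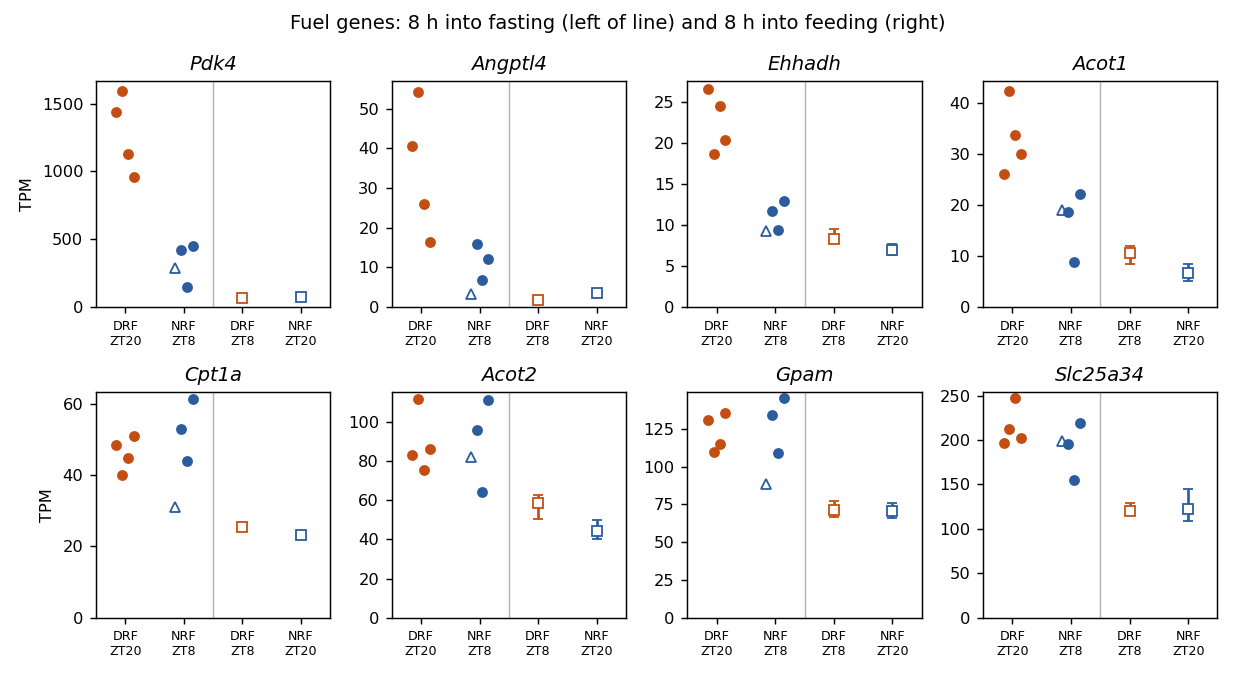
TPM of 8 fuel genes, with points for each library 8 h into fasting (DRF ZT20 orange, NRF ZT8 blue, NRF ZT8 replicate 1 as an open triangle) and squares for the mean of the 4 libraries 8 h into feeding, with bars from the lowest to the highest. Pdk4 reaches 1279 TPM on average at DRF ZT20 and 325 TPM at NRF ZT8, and Cpt1a 46.1 and 47.4 TPM.

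In the glucose and insulin or FOXO list 4 of 28 genes were higher and 2 lower at DRF ZT20 (8 and 1 after rescaling), against 3.16% and 21% of all tested genes (9.8% and 10% after rescaling). Pfkfb2, the heart enzyme that makes the activator of glycolysis, was at 20.3, 15.97, 17.3 and 15.99 TPM against 9.15, 6.10, 7.58 and 7.09 TPM, without overlap (1.12, adjusted p = 1.76e-05, and 1.21 without NRF ZT8 replicate 1). Sesn1, a stress-induced brake on mTORC1, differed by 0.58 and Irs1, the insulin receptor substrate, by 0.43, the latter not called without DRF ZT20 replicate 1 (0.36). The hexokinase gene Hk1 (-0.43) and the phosphatase gene Pdp1 (-0.23) were lower. Foxo1 averaged 8.39 ± 1.45 and 8.27 ± 1.29 TPM (SD, n = 4 each, limma log2 difference 0.016, 95% interval -0.18 to 0.21). Among 14 genes of lipid droplets and lipolysis 3 were higher and 0 lower (4 and 0 after rescaling), against the same shares. Plin4 and Plin3, coat proteins of the droplet, averaged 94.6 ± 13.8 against 57.8 ± 7.02 TPM (limma 0.70, adjusted p = 0.000598) and 90.6 ± 6.67 against 64.4 ± 4.20 TPM (0.49, adjusted p = 7.86e-05), both without overlap. Sums of 6 white adipocyte markers were 5.53 to 70.5 TPM at DRF ZT20 and 40.02 to 167 TPM at NRF ZT8, and of the 5 tested Cfd was lower and the other 4 were not called. Lep was at 0 in some DRF ZT20 libraries.

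Several genes known to respond to glucocorticoids were higher at DRF ZT20. Of 17 genes on this list 8 were higher and 0 lower, against 3.16% and 21% of all tested genes, with a median of 0.52, and 4 were higher without NRF ZT8 replicate 1, with a median of 0.34, against 3.2%. After rescaling the count was again 8 higher and 0 lower, against 9.8% and 10%. Fkbp5, a co-chaperone of the glucocorticoid receptor, was at 8.45, 11.8, 16.98 and 9.75 TPM against 1.91, 3.94, 3.497 and 4.19 TPM (1.53 ± 0.26 SE, adjusted p = 5.39e-05, and 1.34 without replicate 1). Cdkn1a, a cell cycle inhibitor, was at 24.4, 39.5, 48.8 and 34.8 TPM against 14.6, 18.7, 13.6 and 23.6 TPM (1.01, adjusted p = 0.000299, and 0.94 without NRF ZT8 replicate 1). Both genes separated the groups without overlap. Mt1, a metallothionein whose reads may be shared with its paralog Mt2, differed by 0.79, and Pdk4 is also on this list. Zbtb16 (1.01), Mt2 (0.84), Lcn2 (0.63) and Sult1a1 (0.54) were called with all libraries and not without replicate 1 (0.71, 0.61, 0.46 and 0.34). The Zbtb16 call was also lost without DRF ZT20 replicates 1, 2 or 3 or NRF ZT8 replicate 4 (0.89 to 1.04). Tsc22d3 (0.34), Sgk1 (0.11) and Klf9 (0.092), also glucocorticoid targets, were not called. In the feeding pair 4 members were lower and 0 higher at DRF ZT8 (4 and 2 after rescaling), against 2.95% and 2.61% of all tested genes (4.61% and 6.06%), with Fkbp5 at 4.71 ± 3.33 against 9.73 ± 3.20 TPM (SD, n = 4 each, limma -1.02, adjusted p = 0.0129) and Cdkn1a at a difference of -0.95.

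Several of the largest rises lay outside the lists. Glul, which encodes glutamine synthetase, was at 452, 435, 471 and 329 TPM against 133, 194, 209 and 238 TPM (1.14 ± 0.16 SE, adjusted p = 3.97e-06, without replicate 1 of NRF ZT8 0.97). Its fed means were 172 ± 18.1 TPM (DRF ZT8) and 193 ± 19.2 TPM (NRF ZT20, SD, n = 4 each). Gsta3, a glutathione transferase, was at 13.2, 13.5, 15.99 and 10.9 TPM against 6.01, 3.72, 4.82 and 6.04 TPM (1.23), and Fmo2, a flavin monooxygenase, averaged 43.5 against 18.5 TPM (1.197). The means of the membrane protein gene Tmem171 were 9.12 and 2.85 TPM (1.43), of Rasl10a 9.52 and 3.25 TPM (1.29), of the secreted protein gene Angptl7 29.7 and 10.9 TPM (1.32) and of the olfactory receptor gene Olfr1033 12.0 and 4.46 TPM (1.25). The groups did not overlap for any of these 7 genes. No overlap without NRF ZT8 replicate 1 was a condition for naming them. In the feeding pair Rasl10a (-1.17), Angptl7 (-1.36) and Gsta3 (-1.03) were called in the opposite direction, and Glul (-0.17, 95% interval -0.50 to 0.16) and Tmem171 (-0.15, -0.56 to 0.26) were not called.

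Of 20 extracellular matrix genes 16 were lower and 0 higher at DRF ZT20, against 21% and 3.16% of all tested genes, and the median log2 difference was -0.78 (15 lower after rescaling, against 10%, with a median of -0.66, and 17 lower without NRF ZT8 replicate 1, against 26.3%). Col3a1, a fibrillar collagen, was at 41.8, 47.8, 33.2 and 46.5 TPM against 101, 123, 129 and 202 TPM (3.28-fold higher at NRF ZT8, log2 difference -1.66 ± 0.25 SE, adjusted p = 9.87e-06, without replicate 1 of NRF ZT8 -1.79). Col1a1, another fibrillar collagen, was at 26.6, 33.0, 26.7 and 38.6 TPM against 60.1, 72.5, 79.2 and 113 TPM (-1.33, adjusted p = 1.11e-05, without replicate 1 of NRF ZT8 -1.46). The highest value of both came from NRF ZT8 replicate 4, and every NRF ZT8 library lay above every DRF ZT20 library. Col15a1, of the basement membrane zone, and Col6a2, of beaded filaments, differed by -1.23 and -1.12. The basement membrane collagens Col4a1 (-0.73) and Col4a2 (-0.78) were lower too, as were Sparc (-0.77), Fbn1 (-0.74) and the protease inhibitor gene Timp1 (-1.08). Timp3 (0.052), Eln (-0.31), Col8a1 (-0.26) and Fn1 (-0.49) were not called.

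Of 6 fibroblast markers 4 were lower at DRF ZT20 (Lum, Dpt, Tcf21 and Col1a1, which is also on the matrix list), against 21% of all tested genes. After rescaling 2 of them were lower, against 10%. The 6 markers summed to 632 to 832 TPM against 726 to 1211 TPM, and none was at 0. Pdgfra (-0.015, 95% interval -0.17 to 0.14) and Dcn (-0.018, -0.23 to 0.20) were not called. In whole hearts, fewer cells of a type and less RNA per cell cannot be told apart, and the part of fibroblasts in the matrix values was not tested. Sums of 5 smooth muscle and pericyte markers were 552 to 669 TPM against 684 to 755 TPM, without overlap, and none was at 0. Pdgfrb alone of the 5 was called (lower, and also after rescaling). That count is near the 21% of all tested genes lower on the TPM scale (10% after rescaling). The part of these cells was not tested either. In the feeding pair 0 matrix genes were higher and 1 lower (Eln), near the 2.61% and 2.95% of all tested genes, with Col3a1 at 79.5 ± 28.3 TPM at DRF ZT8 and 74.3 ± 15.4 TPM at NRF ZT20 (SD, n = 4 each). At 4 h into fasting Col3a1 averaged 44.9 TPM at DRF ZT16 and 141 TPM at NRF ZT4, and the fasting difference at 8 h minus that at 4 h was -0.077 (95% interval -0.79 to 0.64).

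**Figure D4:**
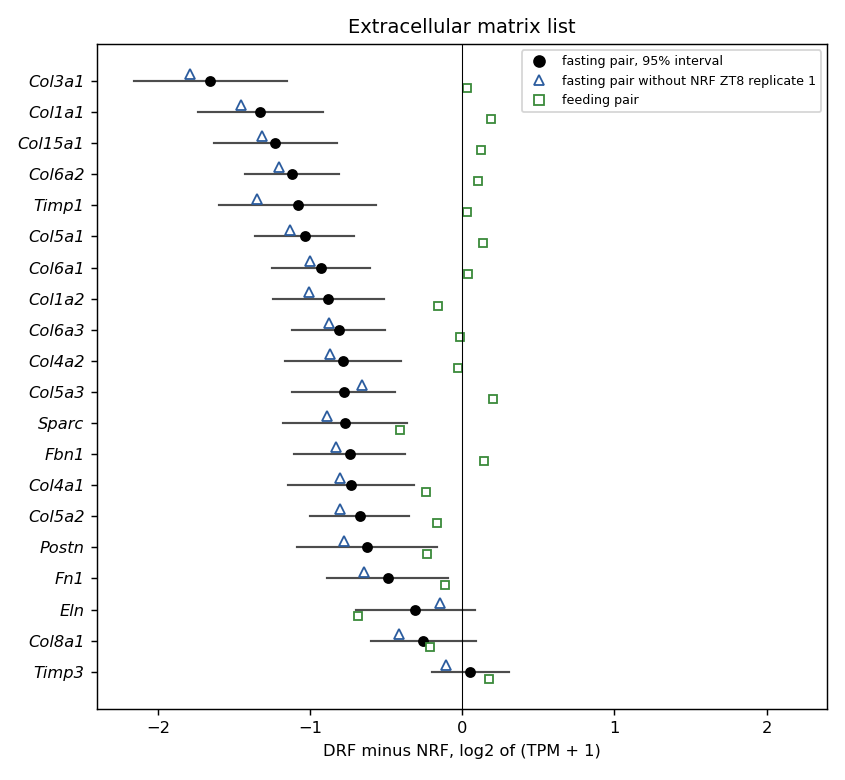
Log2 differences (DRF minus NRF, log2 of TPM + 1) of the 20 extracellular matrix genes, with black points and 95% intervals for the fasting pair, open triangles for the fasting pair without NRF ZT8 replicate 1, and green squares for the feeding pair. The squares run from -0.69 (Eln) to 0.20 (Col5a3), and 19 of the 20 black points lie below 0.

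Tcap, which encodes the titin cap of the sarcomere, was at 1323, 1077, 1590 and 1553 TPM against 2024, 5207, 5483 and 5729 TPM (-1.64 ± 0.23 SE, adjusted p = 3.2e-06). NRF ZT8 replicate 1 was the lowest of its group and still above the DRF ZT20 libraries, and the difference was -1.997 without it. The Tcap difference of the feeding pair was 0.68 (adjusted p = 0.0689), and it was called after rescaling (0.70, adjusted p = 0.0287). The chemokine genes Ccl7 and Ccl12, paralogs that may share reads, averaged 3.52 against 10.4 TPM (-1.36) and 2.82 against 7.96 TPM (-1.33). Sums of 7 leukocyte markers were 46.8 to 102 TPM against 54.7 to 106 TPM. Of the 6 tested, Cd68 alone was called (lower, -0.55), against 21% of all tested genes lower. The part of leukocytes in the chemokine values was not tested. Fndc1, a fibronectin domain protein gene, differed by -1.25.

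Of 19 tested cardiac ion channel genes (of 21) 8 were lower at DRF ZT20 and 0 higher (8 lower and 1 higher after rescaling), against 21% and 3.16% of all tested genes (10% and 9.8% after rescaling). Kcnh2, the pore of the rapid delayed rectifier potassium current, was at 29.4, 24.02, 33.1 and 39.9 TPM against 54.2, 56.3, 55.04 and 68.5 TPM (-0.88 ± 0.12 SE, adjusted p = 3.2e-06, without replicate 1 of NRF ZT8 -0.92). Kcnq1 and Kcne1, the pore and accessory subunit of the slow delayed rectifier, averaged 15.3 ± 2.16 against 25.4 ± 3.46 TPM (SD, n = 4 each, limma -0.69, adjusted p = 3.31e-05) and 5.24 ± 1.16 against 11.0 ± 2.49 TPM (-0.94, adjusted p = 6.28e-05). These 3 genes separated the groups without overlap. Scn4b (-0.70), which encodes an accessory subunit of sodium channels, Cacna1g (-0.62), Kcnd2 (-0.45) and Kcnj11 (-0.36) were also lower, with the Scn4b call lost without DRF ZT20 replicate 2 or NRF ZT8 replicate 4 (-0.61 to -0.58). Kcnip2, an accessory subunit of the transient outward current, was not called (-0.06, 95% interval -0.26 to 0.14). At DRF ZT8 4 channel genes were higher and 0 lower than at NRF ZT20 (5 and 0 after rescaling), against 2.61% and 2.95% of all tested genes (6.06% and 4.61%), with Kcnq1 at 0.48 and Kcnh2 at 0.40. Of 21 genes of calcium handling and adrenergic signaling, the receptor gene Adra1a was higher (0.48) and Adra1b (-0.42) and Pln (-0.21) lower. The shares of all tested genes were 3.16% higher and 21% lower. After rescaling 2 genes of this list were higher and 0 lower, against 9.8% and 10%. Without NRF ZT8 replicate 1 the list had 1 higher and 3 lower on the TPM scale, against 3.2% and 26.3%. Single libraries also decided the calls of Adra1a, lost without DRF ZT20 replicates 1 or 4 or NRF ZT8 replicate 1 (0.38 to 0.45), of Adra1b, lost without DRF ZT20 replicates 1 or 2 or NRF ZT8 replicate 4 (-0.37 to -0.33), and of Pln, lost without DRF ZT20 replicates 2 or 3 or NRF ZT8 replicates 1, 2 or 3 (-0.22 to -0.14).

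The cold-inducible RNA-binding protein genes were lower at DRF ZT20. Cirbp was at 29.1, 26.9, 31.2 and 25.7 TPM against 39.5, 57.2, 55.6 and 61.9 TPM (-0.88, adjusted p = 0.000493, and -1.02 without NRF ZT8 replicate 1) and Rbm3 averaged 17.7 ± 1.76 against 32.3 ± 7.16 TPM (SD, n = 4 each, limma -0.81, adjusted p = 0.00044), both without overlap. Both were higher at DRF ZT8 than at NRF ZT20, by 1.15 and 0.65, while 10 of the 20 genes of the temperature and heat shock list were lower there and these 2 alone higher (9 and 2 after rescaling), with a median of -0.46, against 2.95% and 2.61% of all tested genes (4.61% and 6.06% after rescaling). Serpinh1, a collagen chaperone, was lower in the fasting pair (-0.56) but not called after rescaling. Its call was also lost without DRF ZT20 replicates 1 or 3 or NRF ZT8 replicates 1 or 4 (-0.55 to -0.38). Cirbp, Rbm3 and Serpinh1 made up the 3 lower of the 20 genes in the fasting pair. On the TPM scale 0 were higher, and the shares of all tested genes were 21% lower and 3.16% higher. After rescaling 1 was higher and 2 lower (against 9.8% and 10%), and after rescaling without NRF ZT8 replicate 1, 7 were higher and 2 lower (against 11.8% and 11.4%). In the NAD list 2 of 12 genes were higher and 5 lower (3 and 4 after rescaling), against the shares of all tested genes given for the temperature list on each scale. Nampt, the rate-limiting enzyme of NAD salvage and a known clock target, was at 113, 109, 122 and 109.5 TPM against 73.8, 64.2, 76.1 and 62.8 TPM, without overlap (0.71 ± 0.10 SE, adjusted p = 3.7e-06, and 0.74 without NRF ZT8 replicate 1). Nnmt, which methylates nicotinamide, averaged 4.45 ± 1.16 against 8.91 ± 2.27 TPM (limma -0.86, adjusted p = 0.000219).

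Lists of membrane and protein handling depended more on the scale. In the ER chaperone list 8 of 20 genes were lower on the TPM scale and 0 after rescaling. For this and the following lists the shares of all tested genes were 3.16% higher and 21% lower, or 9.8% and 10% after rescaling. Herpud1, of ER-associated degradation, was higher on both scales, at 290.0, 233, 328 and 262 TPM against 129.9, 135, 158 and 174 TPM (0.89, adjusted p = 6.17e-06, and 0.83 without NRF ZT8 replicate 1). Of 18 tested cholesterol genes (of 21 on the list) 8 were lower and 0 higher (3 and 1 after rescaling), among them Dhcr7 (-0.51) and Hsd17b7 (-0.51), enzymes of late steps of synthesis, the latter not called without NRF ZT8 replicate 4 (-0.39). Of 15 lipogenesis genes 4 were lower and 0 higher (2 and 1 after rescaling), with the desaturase gene Scd2 at 14.1 ± 1.34 against 22.7 ± 4.72 TPM (SD, n = 4 each, limma -0.64, adjusted p = 0.00506) and its paralog Scd4 at -0.97, whose reads may be shared within the family and whose call was lost without DRF ZT20 replicate 1 or NRF ZT8 replicates 2 or 4 (-0.91 to -0.69). Of 24 autophagy genes 3 were higher and 1 lower (6 and 1 after rescaling), with Bnip3, a mitophagy receptor, at 167 ± 6.53 against 116 ± 25.7 TPM (limma 0.54, adjusted p = 0.00227). Of 10 iron genes 3 were lower and 0 higher (2 and 1 after rescaling), including Tfrc, the transferrin receptor (-0.80, not called without DRF ZT20 replicate 2 or NRF ZT8 replicates 2 or 3 (-0.71 to -0.57)). Among 18 tested immediate early genes (of 19) Ccn2 alone was called (0.61, adjusted p = 0.0403), and it was not called without DRF ZT20 replicates 1, 2 or 4 or NRF ZT8 replicates 1 or 2 (0.40 to 0.66). Without NRF ZT8 replicate 1, 3 others were lower. Leaving out that library gave 2 higher and 2 lower genes of fatty acid oxidation and uptake, 4 higher and 2 lower of the glucose list, 2 higher and 0 lower of the lipid droplet list and 0 higher and 9 lower of the ion channels. It gave 2 higher and 2 lower of the temperature list, 2 higher and 5 lower of the NAD list, 1 higher and 4 lower of the ER list, 0 higher and 10 lower of the cholesterol list, 0 higher and 4 lower of the lipogenesis list, 2 higher and 3 lower of the autophagy list and 0 higher and 2 lower of the iron list, against 3.2% and 26.3% of all tested genes.

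**Figure D5:**
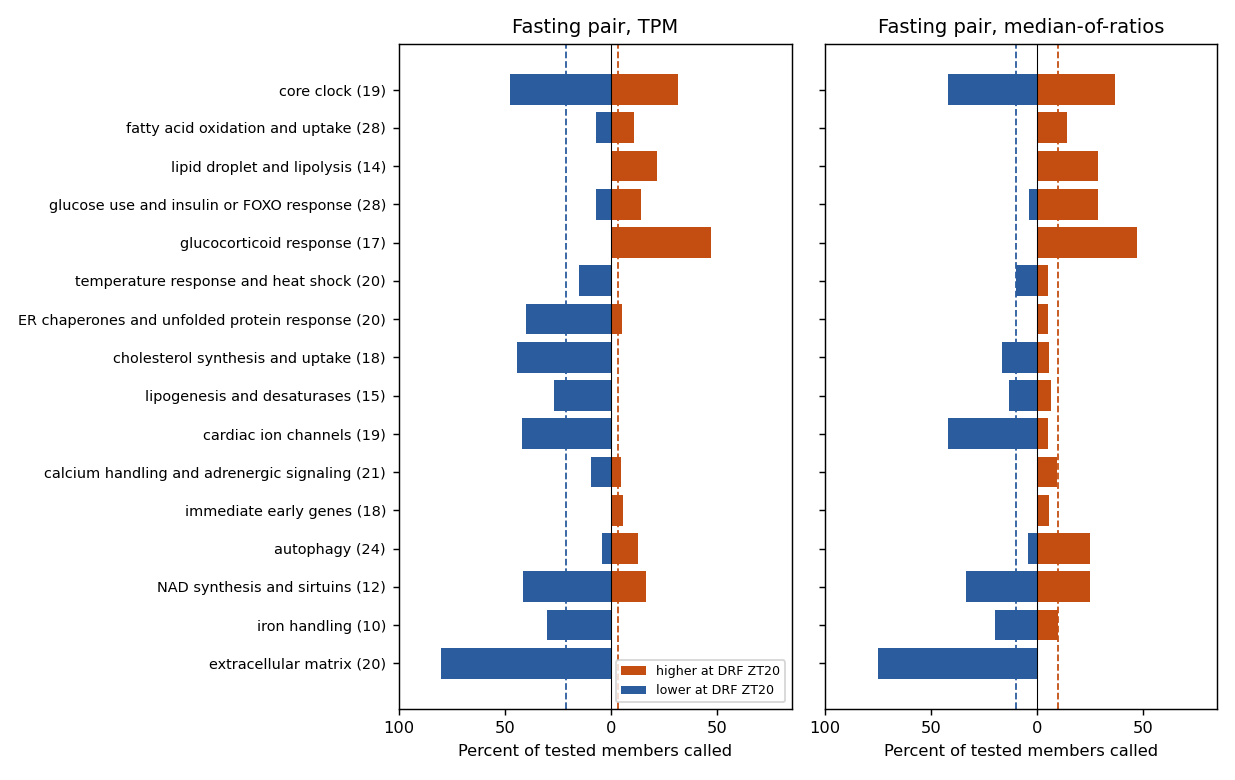
Percent of the tested members of 16 gene lists (number tested in brackets) called higher (orange, to the right) or lower (blue, to the left) at DRF ZT20, on the TPM scale and after median-of-ratios rescaling, with dashed lines for the percent of all tested genes called in each direction. The matrix list has 16 of 20 genes lower on the TPM scale and 15 after rescaling, and the ER list 8 of 20 and 0.

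The difference between the regimens at 8 h was compared with that at 4 h into the fast. The pair at 4 h (DRF ZT16 and NRF ZT4, 4 libraries each) shares no library with the pair at 8 h. Between the pairs 179 genes (1.29%) differed. The count was 483 (3.48%) after rescaling, 35 in a fit of these groups alone and 95 to 232 with single libraries left out. Per2, a period gene, averaged 14.4 TPM at DRF ZT16 and 0.916 TPM at NRF ZT4, and 6.32 and 5.76 TPM at 8 h (change of the limma log2 difference -2.84, adjusted p = 1.89e-07). Arntl averaged 2.87 and 9.45 TPM at 4 h and had the opposite order at 8 h (change 2.72, adjusted p = 2.26e-07). Pdk4 averaged 219 ± 54.8 TPM at DRF ZT16 and 644 ± 566 TPM at NRF ZT4 (SD, n = 4 each), a wide spread, and 1279 and 325 TPM at 8 h (change of the limma log2 difference 3.03, adjusted p = 0.00732), and the difference at 4 h was not itself tested. Ehhadh went from 8.13 ± 0.561 and 13.5 ± 4.46 TPM (SD, n = 4 each) to 22.5 and 10.8 TPM (change of the limma log2 difference 1.61, adjusted p = 0.000127). Fkbp5, at 13.5 and 3.55 TPM at 4 h, kept its order (change -0.063, 95% interval -0.80 to 0.68). The atrial light chain gene Myl7 changed by -7.00 and Hamp, which encodes the iron hormone hepcidin, by -4.67. At 8 h Myl7 was at 3.78, 898, 10.1 and 319.7 TPM against 194, 679, 574 and 1131 TPM, overlapping as the atrial sums did, and the part of atrial tissue in these values was not tested.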

How the data were processed

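Heart polyA RNA libraries (a kit that does not mark strand, paired reads) numbering 56, with 4 in each of 14 groups by regimen and zeitgeber time, were analysed. The submitters' processing notes name HISAT2 2.0.5, featureCounts 1.5.0-p3 and mm10. The authors deposited values they call TPM, but other than linear TPM: each is a library constant times the log2 of 1 plus scaled reads, divided by exon length. Reads were recovered for all 22864 genes, and 100% of the 1274226 values tested came within 0.1 of a whole read. With the annotated length 22002 genes (96.2%) gave whole reads. For 853 genes, counted in that 100%, a length that gives whole reads was searched for. Their annotated length was missing or did not give whole reads. Linear TPM was recomputed, and limma 3.58.1 in R 4.3.3 was fitted to log2(TPM + 1) with 14 group means over all 56 libraries (eBayes with trend, Benjamini-Hochberg adjustment), for 13869 genes whose mean reached 1 TPM. A gene was called at an adjusted p under 0.05. Folds are on the log2(TPM + 1) scale, which understates changes of low genes, except that linear folds are ratios of mean TPM. The test assumed linear TPM when it was planned, and was run on the recomputed values.

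Members, gene lists and named genes were chosen with earlier results of these data known. Named genes were all core clock genes and up to 4 called members of each list (the 2 most abundant where none was called). Genes with a food-state difference were named where the fasting interval was narrow or the gene was on a fuel list. The 5 largest changes from 4 h to 8 h were named as well. The 10 largest rises and the 10 largest falls were named among genes called with and without NRF ZT8 replicate 1. These also needed a mean of at least 5 TPM in the higher group, a protein-coding name and no overlap of the groups without that library. For these genes no overlap without that library was therefore a condition and not a result. Other list members with values in the text were named after their values were seen. The labels do not say that replicates came from separate cages or extractions. P-values therefore measure only the spread between these samples, pooled over the 14 groups. No molecular identifiers are described for these reads. Alternatives were another pseudocount (0.1), no filter, median-of-ratios rescaling, fits of the groups compared, a replicate block, voom, array weights, the deposited scale and leaving out each library. The test was checked on simulated data. Some members of the lists are counted but not reported by name here. Promoter windows are from RefSeq GRCm38.p6.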

Additional observations from a re-analysis of the deposited data

Results flagged for a closer look

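Each group of 4 values was searched for a highest or lowest library whose gap to its nearest neighbour took up more of the group's whole range than Dixon's critical value at the 95% level. Of 202 groups (101 named genes in DRF ZT20 and NRF ZT8) 12 passed, and chance gives about 1 in 20. NRF ZT8 replicate 1 stood apart for Cry1 (0.838), Nfil3 (0.899), Tcap (0.859) and Ddit3 (0.842), and NRF ZT8 replicate 4 for Foxo1 (0.862) and Kcnh2 (0.853). At DRF ZT20 replicate 4 stood apart for Per1 (0.964), Tmem171 (0.892) and Nsdhl (0.947), replicate 2 for Per3 (0.878) and Nr1d2 (0.832), and replicate 1 for Per2 (0.885). Of these, Ddit3 was at 13.4, 15.8, 13.7 and 17.6 TPM against 31.7, 20.9, 18.8 and 19.3 TPM, and its call was lost without NRF ZT8 replicate 1 (-0.36), after rescaling (adjusted p = 0.0586), on the deposited log scale and in the fit of the groups compared.

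The fasting and feeding differences were themselves different for 2440 genes (limma, adjusted p under 0.05). Those named with an adjusted p under 0.001 and a size of at least 1 on the log2 scale, as the difference of the pairs divided by 2, were the clock genes Nr1d1 (-3.62), Dbp (-3.14), Nr1d2 (-1.19), Arntl (1.2), Cry1 (1.18) and Nfil3 (1.18). Outside the clock they were Angptl7 (1.34), Fkbp5 (1.27), Rasl10a (1.23), Gsta3 (1.13), Tcap (-1.16), Scd4 (-1.06), Ccl12 (-1.03) and Cirbp (-1.01).

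The fasting differences at 8 h and at 4 h were different for 179 genes. By the same limits, the difference at 8 h minus that at 4 h was above 0 for Arntl (2.72), Npas2 (2.22), Tmem171 (1.83) and Ehhadh (1.61), and below 0 for Dbp (-4.02), Per2 (-2.84), Per3 (-2.57), Hlf (-2.06), Tef (-2.03), Nr1d2 (-1.44) and Bhlhe41 (-1.39).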

How the results depend on the processing

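Counts of called genes are given here by setting. Fitting only the libraries of the groups compared gave 742 genes in the fasting pair (against 3344), 1376 in the feeding pair (against 771), 437 for food state (against 709) and 35 between 8 h and 4 h of fasting (against 179), a fit with fewer samples to estimate the spread. Median-of-ratios rescaling gave 1481 in the feeding pair, 1357 for food state and 483 between 8 h and 4 h. It moved the percent of called genes that were lower at DRF ZT20 from 86.9 to 50.5, or 49.2 without NRF ZT8 replicate 1 (a setting chosen after seeing the data), and the deposited log scale moved it to 48.6. The deposited log scale gave 1495, 1361 and 504 genes for the feeding pair, food state and 8 h against 4 h, and limma voom 1376, 1271 and 355. Array weights, which were lowest in the 8 libraries for NRF ZT8 replicate 1 (0.366), NRF ZT8 replicate 4 (0.390) and DRF ZT20 replicate 2 (0.449), gave 2361 in the feeding pair, 3892 for zeitgeber time, 2557 (against 1349) for regimen and 1936 for food state. Without a filter on low values 107 genes differed between 8 h and 4 h. The cause of these shifts was not tested.

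Leaving out each library in turn gave 1629 to 4091 genes in the fasting pair, 394 to 656 in the feeding pair, 1809 to 3089 for zeitgeber time, 461 to 1808 for regimen, 488 to 1127 for food state and 95 to 232 between 8 h and 4 h, and 76.9 to 91.1 percent lower of those called in the fasting pair. The fasting pair fell furthest without NRF ZT8 replicate 4 (1629), as did regimen (461). The feeding pair fell to 394 without NRF ZT20 replicate 1, 458 without replicate 3, and 455, 435 and 479 without DRF ZT8 replicates 1, 2 and 3. Regimen fell to 620 without DRF ZT20 replicate 1, 708 and 686 without DRF ZT8 replicates 2 and 3, and 761 and 741 without NRF ZT20 replicates 1 and 2. Food state rose to 1127 without NRF ZT8 replicate 1. The count between 8 h and 4 h fell to 119 and 108 without DRF ZT16 replicates 1 and 4, 101 and 111 without DRF ZT20 replicates 1 and 4, 96 without NRF ZT4 replicate 4 and 95 without NRF ZT8 replicate 3.

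Deviations from the group means correlated at 0.14, -0.19, -0.14 and 0.049 between same-numbered DRF ZT20 and NRF ZT8 libraries. These values are too few to show whether such samples shared anything beyond the number. With the replicate block 3338 genes were called in the fasting pair. Of 101 named genes 80 were called in the fasting pair, 44 of them in all 17 settings, and no value reversed with a call. The fewest reads behind any named gene in the 8 libraries were 1 (Hamp). Intervals rest on a spread estimated over all 14 groups (56 libraries), not on the 4 libraries of a group alone.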

Other observations

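Genes of housekeeping complexes were counted beside all tested genes, of which 3.16% were higher and 21% lower at DRF ZT20 (9.8% and 10% after rescaling). Of 39 proteasome subunit genes 16 were lower and 0 higher at DRF ZT20 on the TPM scale and 4 lower after rescaling, with medians of -0.17 and -0.046. Of 77 mitochondrial ribosomal protein genes 17 were lower and 0 higher (4 lower and 2 higher after rescaling). Of 80 cytosolic ribosomal protein genes 2 were lower (1 after rescaling, and 20 on the TPM scale without NRF ZT8 replicate 1, against 26.3% of all tested genes), and of 87 nuclear genes of the respiratory chain 7 were lower (2 lower and 1 higher after rescaling). Of the 13 mitochondrially encoded genes 2 were higher and 0 lower on the TPM scale (5 higher after rescaling), with a median of 0.20. In the feeding pair 0 of the 13 were called, at a median of 0.21. Endothelial marker sums were 542 to 649 TPM at DRF ZT20 and 559 to 740.2 TPM at NRF ZT8, with 0 of 6 genes called.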
